A study of Mus musculus with 6 samples.

Results

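Transcripts of 10 genes of fatty acid synthesis, elongation and desaturation were followed in the mouse dendritic cell line DC2.4 and in a derivative of it that lacks PD-L1 by its label. The genes were chosen by symbol: Mid1ip1, Acaca, Fasn, Acly, Srebf1, Scd1, Scd2, Elovl1, Elovl6 and Elovl7. All 10 were found among the 31205 genes of the read count table, and all 10 passed the filter on low counts that left 11453 genes for testing. The study's title concerns ferroptosis, in which cells die as iron drives the peroxidation of their lipids, and the part PD-L1 plays in it under chemotherapy. Its samples are 3 libraries of DC2.4 with the genotype label Control and 3 with the label PD-L1 knockout, all from total RNA. The labels give no drug treatment, time or culture condition, do not say whether the derivative is a single clone, and do not say whether cultures were separate. The p-values therefore rest on a spread between libraries that may be technical only.

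Fatty acids are built in the cytosol from acetyl-CoA that ATP citrate lyase (Acly) releases from citrate. Acetyl-CoA carboxylase (Acaca) turns it into malonyl-CoA, the committed step, and fatty acid synthase (Fasn) assembles palmitate from both. Mid1ip1 encodes a small protein that binds acetyl-CoA carboxylase and promotes its assembly into active polymers. The transcription factor SREBP1 (Srebf1) drives these genes. Stearoyl-CoA desaturases (Scd1 and Scd2) then place the first double bond, and ELOVL enzymes lengthen the chain: Elovl6 takes palmitate to stearate, Elovl1 makes very long saturated chains, and Elovl7 acts on long saturated chains. Monounsaturated chains are harder to peroxidize than polyunsaturated chains, which is why these enzymes are studied in ferroptosis.

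For 3 genes whose counts were lower in the libraries labelled knockout, the 250 bases before the RefSeq transcription start (GRCm38.p6, the build that mm10 names) are shown, so that the letters near their starts can be compared. Capitals mark every match on either strand to the CCAAT box (CCAAT) or the GC box (GGGCGG). In Fasn a pair of CCAAT matches on opposite strands overlap. Mid1ip1 is at chrX:10717115-10717364, plus strand, Fasn at chr11:120824548-120824797, minus strand, and Elovl7 at chr13:108214154-108214403, plus strand. Each is written 5′ to 3′ along the gene.
Mid1ip1: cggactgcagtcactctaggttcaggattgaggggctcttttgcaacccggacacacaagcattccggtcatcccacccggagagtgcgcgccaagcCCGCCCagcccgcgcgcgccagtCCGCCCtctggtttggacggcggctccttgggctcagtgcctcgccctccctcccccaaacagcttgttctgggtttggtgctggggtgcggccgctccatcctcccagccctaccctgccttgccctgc
Fasn: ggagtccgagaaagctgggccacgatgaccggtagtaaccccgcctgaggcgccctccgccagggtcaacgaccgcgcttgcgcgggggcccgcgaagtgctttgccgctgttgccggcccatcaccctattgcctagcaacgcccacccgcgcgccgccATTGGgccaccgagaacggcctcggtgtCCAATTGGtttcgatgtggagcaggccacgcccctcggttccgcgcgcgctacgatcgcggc
Elovl7: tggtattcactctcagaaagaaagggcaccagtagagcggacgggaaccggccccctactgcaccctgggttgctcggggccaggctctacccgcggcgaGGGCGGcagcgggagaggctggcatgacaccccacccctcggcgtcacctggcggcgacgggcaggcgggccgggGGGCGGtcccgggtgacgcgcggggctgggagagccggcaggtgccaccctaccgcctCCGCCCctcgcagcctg

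The Mid1ip1 stretch held 2 GC boxes and no CCAAT box, the Elovl7 stretch held 3 GC boxes and no CCAAT box, and the Fasn stretch held 3 CCAAT boxes and no GC box. In the RefSeq windows of 250 bases before to 50 after the start, 35.7% of 32851 promoters held a GC box and 37.4% a CCAAT box. The table held windows for 8 of the 10 genes, not for Scd1 and Scd2. None of the 11 windows of these 8 genes held the E-box CACGTG (7.15% of all windows) or the sterol response element core TCACNCCAC (1.24%), with both strands searched. Among genes not called below, the windows held 4 GC boxes for Acly, 5 and 2 for Elovl1, 2, 3 and 0 for Srebf1 and 0 for Elovl6. A tie between these boxes and the fold changes was not tested. The RefSeq starts used for Mid1ip1 and Acaca lie inside the genes as GENCODE draws them, so that the Mid1ip1 stretch shown is within its GENCODE gene (X, 10715013 to 10719690) and not before it. The Acaca window held none of these motifs and is not shown.

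Libraries held 10918498 to 23250065 counts in control and 13501776 to 21133688 in knockout. Cd274, which encodes PD-L1, had 52, 99 and 171 counts in control and 102, 81 and 163 in knockout (libraries 1, 2 and 3 in this order here and below; log2 fold change 0.28, SE 0.25, edgeR adjusted p = 0.415). The transcript was thus not lower where the label says knockout. A count over the whole gene cannot show an altered coding sequence, so the labels alone set each direction below, and "knockout library" means a library labelled so. Of 15 dendritic cell markers 8 were tested and 1 was lower. Itgax, Irf8, Cd74 and Cd86 were present. Clec9a was at 0 in all libraries, and Flt3, H2-Ab1 and Ccr7 had at most 4 counts in any. Of 9 macrophage and monocyte markers 8 were tested, with 5 lower and 0 higher; their summed CPM was 981.6 to 1235 in control and 758.4 to 1090 in knockout. Of 9 adipocyte markers, a lipogenic cell type, 1 was tested and 0 were called, with a summed CPM of 7.517 to 11.43 in control and 4.152 to 8.108 in knockout; Adipoq had 1 count in all libraries together. In control library 2 the fibroblast markers Col1a1 and Fn1 had 2235 and 1382 counts, and elsewhere no more than 5 and 3. The part of these markers in the results was not tested.

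Across all tested genes 13.5% were called lower in knockout and 11.8% higher, 25.3% in all (edgeR quasi-likelihood test, adjusted p under 0.05). Of the 10 genes, 4 were called lower and 0 higher: Mid1ip1, Acaca, Fasn and Elovl7. The genes were proposed with this contrast known, so the count and the statistics on them are a description and support nothing. The median log2 fold change was -0.23 over the 10 genes and 0.01 over all tested genes. All knockout libraries lay below all control libraries for 3 of the 10 genes (21.8% of all tested genes), and the groups did not overlap in either direction for 4 (43% of all tested genes), the fourth being Elovl1, which lay above. Scaled by total counts alone, the median of all genes moved to -0.14, and 23.2% of all calls were higher in place of 46.7%.

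**Figure D1:**
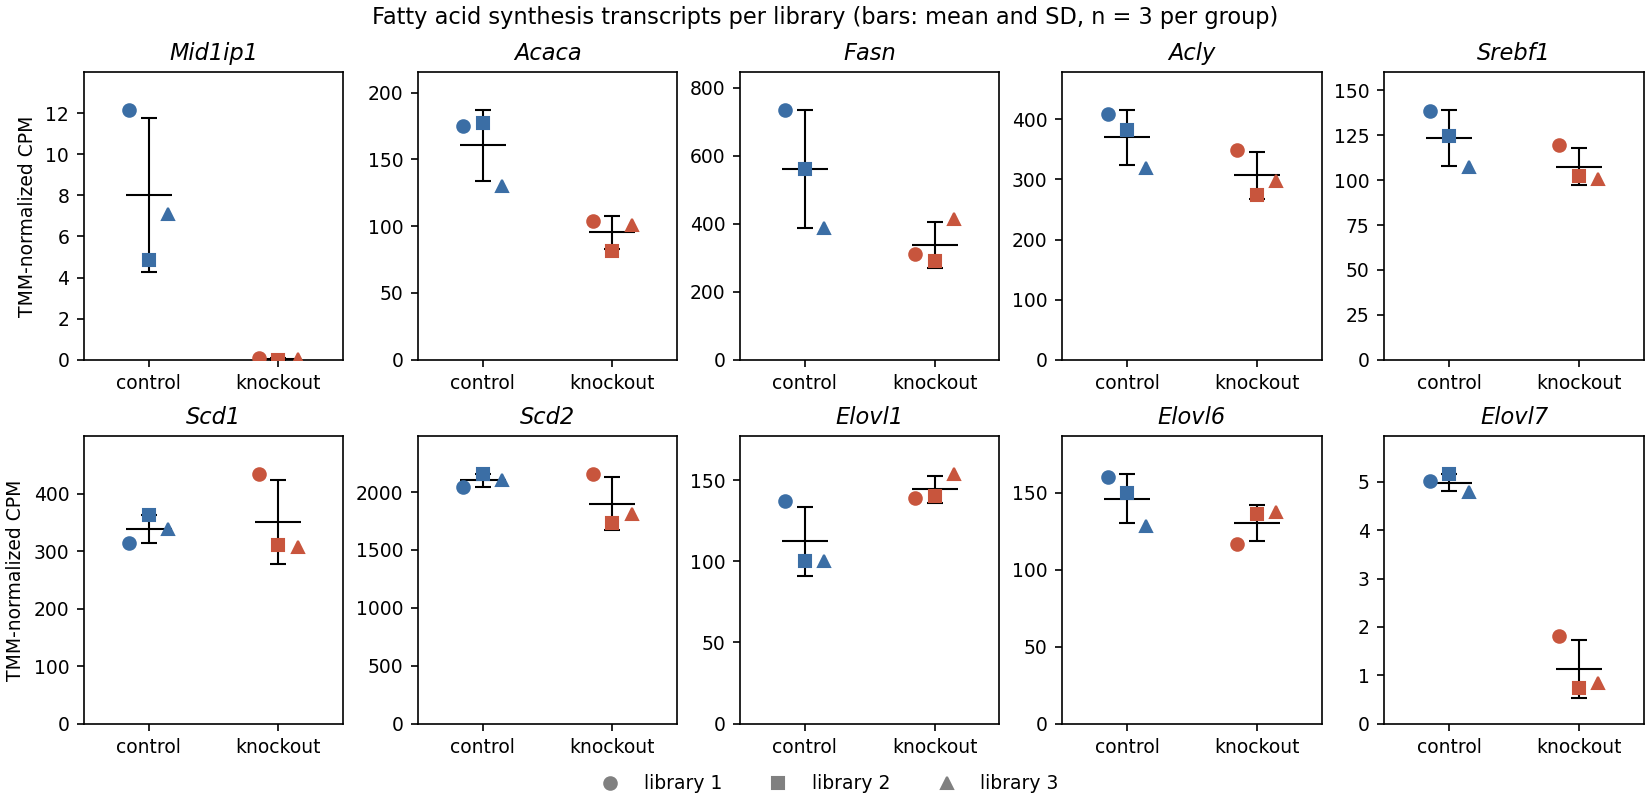
TMM-normalized CPM (vertical axes, each from 0) of the 10 genes in 3 control libraries (blue) and 3 knockout libraries (red), with symbols for the library number and bars for mean and SD. Mid1ip1 lies at 4.86 CPM or more in every control library and at 0.08 or less in every knockout library, Elovl7 falls to between 0.74 and 1.81 CPM, and Fasn overlaps between groups through the libraries numbered 3.

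Mid1ip1 (ENSMUSG00000008035.12, X, 10715013 to 10719690, plus strand) was almost absent from the knockout libraries. It had 136, 82 and 177 counts in control and 1, 0 and 1 in knockout. As TMM-normalized CPM these are 12.2, 4.86 and 7.07 in control and 0.08, 0 and 0.05 in knockout. Every knockout library was below its floor of 3 counts, which is 0.226, 0.201 and 0.149 CPM. The summed counts, 395 against 2, gave a control-to-knockout ratio of 179.5 after scaling, with a 95% interval of 49.4 to 1487 that covers counting error only. The fitted log2 fold change was -7.35 (SE 0.64, edgeR adjusted p = 0.000143), the 10th largest fall of the 11453 genes. Control library 1 was the highest of the controls, so that the level in control was 8.03 ± 3.75 CPM (SD, n = 3). Fewer cells with the transcript and less transcript per cell cannot be told apart in such bulk counts. The call held under all 16 alternative settings, with log2 fold changes from -7.81 to -6.77.

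The stretch of the X chromosome around Mid1ip1 gave few other transcripts to compare. Of 19 genes of the table within 1 Mb, Mid1ip1 included, 3 had any count and 2 were tested. The other tested gene was Rpgr, a ciliary gene 498.1 kb away, with 6.0, 5.63 and 5.55 CPM in control and 6.87, 6.92 and 5.77 in knockout (log2 fold change 0.19, 95% interval -0.28 to 0.65, edgeR adjusted p = 0.532). Tspan7 had 1 count in control libraries 1 and 3 and 0 elsewhere. Gm14493, which overlaps Mid1ip1 in the annotation, had 0 counts in all libraries. Over the 326 tested genes of the X chromosome, 21 were higher and 68 lower, with a median log2 fold change of -0.11. Over all 11453 tested genes 1353 were higher (11.8%) and 1543 lower (13.5%), with a median of 0.01. The figures of the X chromosome were not adjusted for exon length, with which fold changes moved, as given below.

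The 5 named genes whose library profile lay nearest to that of Mid1ip1 were Ncs1, a neuronal calcium sensor, Itga6, an integrin chain, Slc8a1, a sodium-calcium exchanger, Fnbp1l, a membrane-bending adaptor, and Dock3, a guanine nucleotide exchange factor. Nearness was the root mean square difference, over the 6 libraries, of log2 CPM taken relative to the control mean, and it ranged from 0.49 for Ncs1 to 0.57 for Dock3. Ncs1 had 151, 129 and 200 counts in control and 0, 0 and 1 in knockout. Slc8a1 had 73, 69 and 77 against 0, 0 and 1. None of the 5 is on the X chromosome: Ncs1 and Itga6 are on chromosome 2, Slc8a1 on 17, Fnbp1l on 3 and Dock3 on 9. As the choice by nearness entails, all 5 were low in knockout, with at most 44 counts in any knockout library and 69 or more in every control library.

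Mid1 and Thrsp, a binding partner and a paralog of Mid1ip1, were at no more than 7.41 and 0.59 CPM in any library. Mid1, the microtubule-associated ubiquitin ligase after which Mid1ip1 is named, was at 6.45 ± 1.12 CPM in control and 4.78 ± 2.29 in knockout (-0.41 on the log2 scale, SE 0.33, edgeR adjusted p = 0.381). Thrsp, the paralog, known from lipogenic tissue, had 3, 10 and 11 counts in control and 1, 8 and 6 in knockout and was not tested. Thrsp counts in knockout were thus no higher than in control, and both Thrsp and Mid1ip1 were under 1 CPM there.

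Acaca (ENSMUSG00000020532.18, chromosome 11, 84129672 to 84401651, plus strand), the carboxylase that Mid1ip1 binds, was lower in all 3 knockout libraries than in any control. It was at 175, 177 and 130 CPM in control and at 104, 81.5 and 101 in knockout. The fitted fold was 0.59 (log2 fold change -0.75, SE 0.16, edgeR adjusted p = 0.0118). Leaving out control library 2 ended the call (-0.67, adjusted p = 0.0678), as did leaving out knockout library 2 (-0.65, adjusted p = 0.0501). The second carboxylase, Acacb, which makes malonyl-CoA at the mitochondrial surface, fell from 3.08 ± 0.34 to 1.13 ± 0.07 CPM, by 1.46 on the log2 scale (SE 0.30, edgeR adjusted p = 0.0101). Its counts were 32, 49 and 87 in control and 16, 16 and 22 in knockout. Leaving out control library 2 ended the call of Acacb (adjusted p = 0.0528).

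Fasn (ENSMUSG00000025153.9, chromosome 11, 120805846 to 120824547, minus strand) was at 734, 562 and 386 CPM in control and at 310, 289 and 414 in knockout. The groups overlapped: knockout library 3 was above control library 3. The fitted fold was 0.60 (log2 fold change -0.73, SE 0.23, edgeR adjusted p = 0.0427). Its spread was wide, at 561 ± 174 CPM for control and 338 ± 67.1 for knockout (SD, n = 3). The call rested on 4 of the 6 libraries: it ended when control library 1 was left out (-0.49, adjusted p = 0.138), control library 2 (-0.73, adjusted p = 0.125), knockout library 2 (-0.63, adjusted p = 0.143) or knockout library 3 (-0.90, adjusted p = 0.0523).

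Acaca and Fasn are among the longest transcripts tested, and fold changes in these libraries moved with length. When the tested genes were divided by exon length into 5 classes of equal size, the median log2 fold change went from 0.35 in the shortest class to -0.35 in the longest (7497 bases or more), where 32.8% of genes were called lower. Acaca (17074 bases of merged exons) and Fasn (10947) are in that class, Acly, Srebf1, Scd2 and Elovl6 in the fourth, Scd1 and Elovl7 in the third, Elovl1 in the second and Mid1ip1 (2128) in the first. When the trends of the libraries with exon length and GC content were taken out by offsets, Acaca was at 0.04 (SE 0.13, edgeR adjusted p = 0.837) and Fasn at -0.09 (SE 0.21, 0.763), and neither was called. Those offsets moved the median of all genes to 0.13, and relative to it Acaca was at -0.09 and Fasn at -0.23. Mid1ip1 (-7.47, adjusted p = 0.000168) and Elovl7 (-2.16, 0.00527) were called with the offsets as without them. Acacb was called with them (-0.94, adjusted p = 0.0481) but not with the replicate number as a block besides (-0.93, adjusted p = 0.0626). With the offsets 68.9% of all calls were higher.

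**Figure D2:**
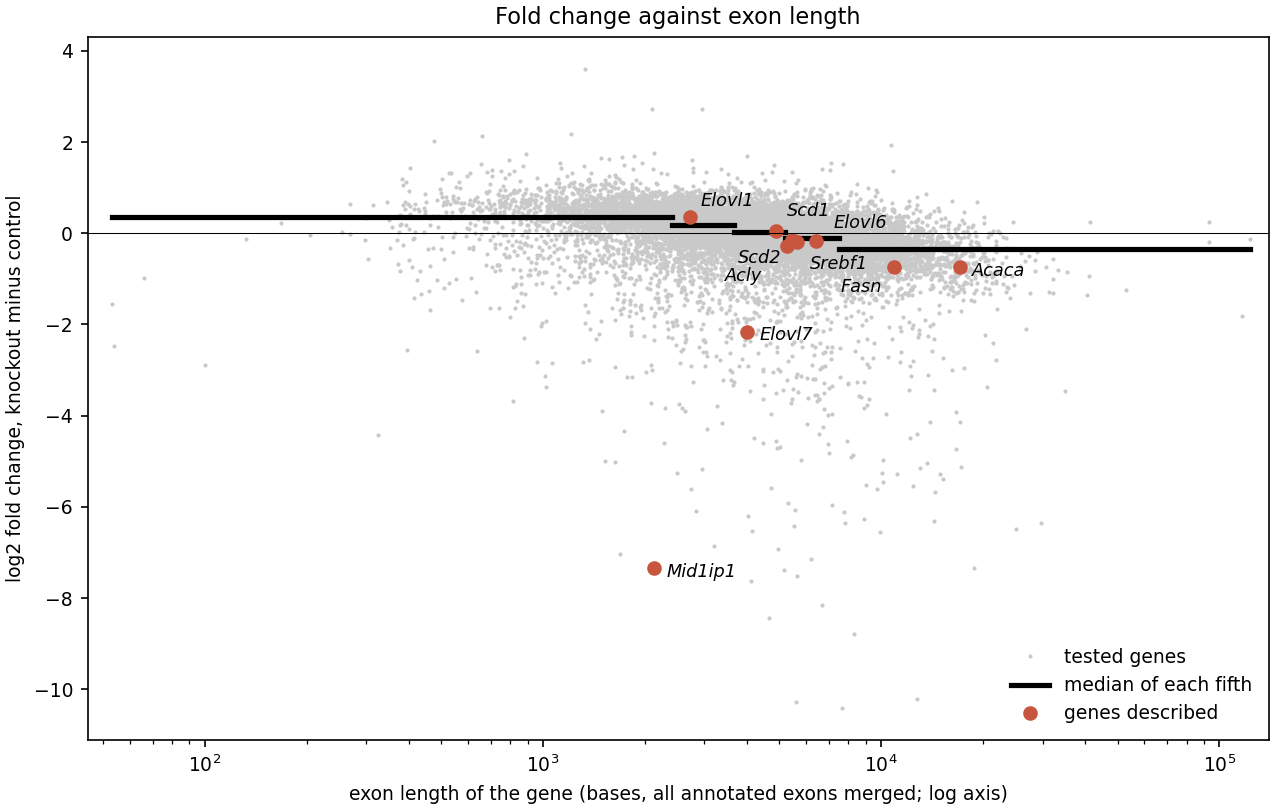
Log2 fold change of knockout minus control against exon length (log axis) for all tested genes (grey), with the median of each of 5 length classes (black bars) and the 10 genes (red). Acaca and Fasn sit in the longest class, whose median is -0.35, while Mid1ip1 and Elovl7 lie far below the median of their classes.

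**Figure D3:**
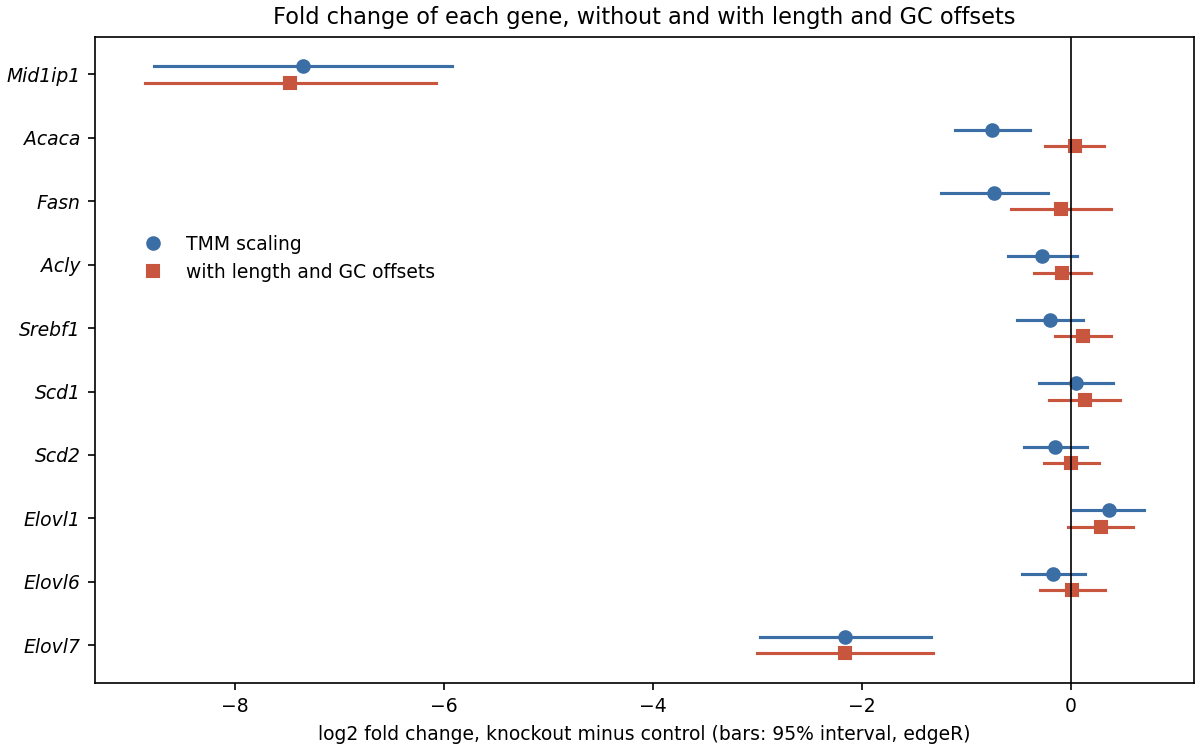
Log2 fold change of the 10 genes, knockout minus control, with 95% intervals, from the TMM-scaled fit (blue circles) and with length and GC offsets (red squares). The intervals of Acaca and Fasn exclude 0 in the first and hold it in the second; those of Mid1ip1 and Elovl7 stay below 0 in both.

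Acly and Srebf1, which stand before and above the carboxylase step, did not pass the test. Acly (chromosome 11, 100476353 to 100528000) was at 409, 382 and 319 CPM in control and 349, 273 and 298 in knockout (log2 fold change -0.27, 95% interval -0.60 to 0.06, edgeR adjusted p = 0.199). It was called in 1 of 16 alternatives, without knockout library 1 (-0.38, adjusted p = 0.0495). Srebf1 (chromosome 11, 60199089 to 60222581) was at 139, 124 and 107 CPM in control and 119, 103 and 100 in knockout (-0.20, 95% interval -0.51 to 0.11, adjusted p = 0.311), and was called in 0 of 16. Both genes overlapped between the groups. Gene counts do not separate the SREBP1a and SREBP1c forms of Srebf1.

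Within each library the ratio of Acaca to Acly, per kilobase of exon, does not depend on scaling, though it does depend on the length trend. It was 0.132, 0.144 and 0.126 in control and 0.0921, 0.0921 and 0.105 in knockout, without overlap. The ratio of Fasn to Acaca overlapped, with a mean of 5.38 in control and 5.53 in knockout. Fasn to Acly was 0.866, 0.71 and 0.584 in control and 0.428, 0.51 and 0.671 in knockout, with overlap through the libraries numbered 3. With the length and GC offsets, the log2 fold change of Acaca minus that of Acly went from -0.48 to 0.12, and that of Fasn minus that of Acly from -0.46 to -0.02.

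The desaturases were abundant and did not pass the test. Scd2 (chromosome 19, 44293674 to 44306864) was at 2042, 2155 and 2106 CPM in control and 2158, 1730 and 1810 in knockout (log2 fold change -0.15, 95% interval -0.45 to 0.15, edgeR adjusted p = 0.442). Scd1 (chromosome 19, 44394455 to 44407879) was at 314, 362 and 339 CPM in control and 435, 310 and 307 in knockout (0.05, 95% interval -0.31 to 0.41, adjusted p = 0.835). Knockout library 1 was the highest of the 6 for both genes. Without it Scd1 was at -0.14 (adjusted p = 0.416), and scaled by total counts alone at -0.10. Per kilobase, Scd2 exceeded Scd1 by 5.82, 5.33 and 5.57 times in control and 4.45, 4.99 and 5.28 times in knockout. The groups did not overlap, but control library 2 (5.33) and knockout library 3 (5.28) were nearly equal. The log2 fold change of Scd2 minus that of Scd1 was -0.20, and -0.13 with the offsets. Reads shared by these similar genes may have been split or dropped. Scd3 and Scd4, named after their values were seen, had at most 9 counts in any library and were not tested.

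The elongases differed among themselves. Elovl7 (ENSMUSG00000021696.9, chromosome 13, 108214404 to 108285683, plus strand) had 56, 87 and 120 counts in control and 24, 11 and 17 in knockout. As CPM this was 5.01, 5.16 and 4.80 in control, nearly constant, and 1.81, 0.74 and 0.85 in knockout. The fitted log2 fold change was -2.16 (SE 0.37, edgeR adjusted p = 0.0049), a control-to-knockout fold of 4.47, and it was called under all 16 alternatives, from -2.64 to -1.94. Knockout library 1 kept the highest level of the knockouts.

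Elovl1 (chromosome 4, 118428093 to 118432953) had the opposite sign, at 137, 100.2 and 100.1 CPM in control and 139, 140 and 154 in knockout. All knockout libraries were above all controls, by little for control library 1, and the gene was not called (log2 fold change 0.36, 95% interval 0.02 to 0.70, edgeR adjusted p = 0.102). Without control library 1 it was called (0.53, adjusted p = 0.0278), the only 1 of 16 alternatives in which it was. Elovl6 (chromosome 3, 129532355 to 129638495) was at 160, 150 and 129 CPM in control and 117, 136 and 138 in knockout (-0.17, 95% interval -0.47 to 0.14, adjusted p = 0.385). The ratio of Elovl6 to Elovl1 per kilobase was 0.496, 0.635 and 0.545 in control and 0.357, 0.412 and 0.379 in knockout, without overlap. Elovl1 relative to Fasn was 0.749, 0.716 and 1.04 in control and 1.80, 1.95 and 1.49 in knockout, also without overlap. Elovl1 is shorter than both, and with the length and GC offsets these differences were smaller: the log2 fold change of Elovl6 minus that of Elovl1 went from -0.53 to -0.27, and that of Elovl1 minus that of Fasn from 1.09 to 0.38.

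Levels are compared between genes only as CPM per kilobase of merged exons, in control. Scd2 was highest at 385 ± 10.4 (SD, n = 3), above 99.35% of tested genes. Acly (70.1 ± 8.74) and Scd1 (69.2 ± 4.91) did not differ beyond their spread, nor did Scd1 and Fasn (51.2 ± 15.9), or Fasn and Elovl1 (41.2 ± 7.79), whose ranges overlapped. Elovl6 (22.7 ± 2.51) and Srebf1 (21.9 ± 2.80) overlapped too. Acaca (9.40 ± 1.56), Mid1ip1 (3.78 ± 1.76) and Elovl7 (1.24 ± 0.05) followed without overlap. The genes lowest in knockout relative to control were thus the pair with the lowest control levels. In knockout Mid1ip1 was last, at 0.020 ± 0.018, Elovl7 next at 0.28 ± 0.15 and Acaca at 5.59 ± 0.71, while Elovl1 (52.9 ± 3.06) was above Fasn (30.8 ± 6.13) in every library.

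The regulators of SREBP, LXR and ChREBP that act on these genes had 2 called higher and 2 lower of 21 tested, with a median log2 fold change of 0.04 (0.01 over all tested genes). For comparison with this list and those below, 11.8% of all tested genes were called higher and 13.5% lower. The list medians were not adjusted for exon length. Medians by length class ran from 0.35 in the shortest to -0.35 in the longest. SREBP processing genes did not pass: Scap, the escort protein, was at -0.08 (edgeR adjusted p = 0.709), Insig1, its retention partner and an SREBP target, at 0.04 (0.848), and Srebf2 at -0.27 (0.2). Rxra, the partner of LXR, rose from 8.55 ± 1.29 to 21.9 ± 2.7 CPM (by 1.35, SE 0.18, adjusted p = 0.00148), and Rxrb rose by 0.51 (SE 0.12). Mlxip, a glucose-sensing factor related to ChREBP, fell from 79.4 ± 10.6 to 45.5 ± 6.78 CPM (-0.80, SE 0.16), and Sp1, which binds GC boxes, fell from 108 ± 12.0 to 60.5 ± 11.4 (-0.84, SE 0.16, adjusted p = 0.00783). Nr1h3, LXR alpha, was at 2.08 ± 0.59 CPM in control and 1.40 ± 0.41 in knockout (adjusted p = 0.271). Mlxipl, ChREBP itself, named after its values were seen, was too low to test, with at most 25 counts in a library.

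Of 15 tested genes that control acetyl-CoA carboxylase, among them the AMP-activated kinase subunits, 0 were higher and 1 was lower, which was Acacb, with a median of -0.08. Carbon and reducing power supply had 3 higher and 2 lower of 17 (median 0.01). Slc25a1, the citrate carrier that feeds Acly, rose from 84.5 ± 6.58 to 125 ± 7.65 CPM (a log2 difference of 0.57, SE 0.13, edgeR adjusted p = 0.0131), and Mdh1, cytosolic malate dehydrogenase, by 0.50 (SE 0.13). Acss2, which makes acetyl-CoA from acetate, fell from 7.69 ± 2.06 to 3.47 ± 0.56 CPM (-1.16, SE 0.27) and was not called with the length and GC offsets (-0.70, adjusted p = 0.0677). G6pdx, the first enzyme of the NADPH-producing pentose phosphate pathway, fell by 0.55 (SE 0.13).

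Other elongation and desaturation enzymes had 1 higher and 0 lower of 15, with a median of 0.26. The call was Tecr, the last reductase of the elongation cycle (log2 fold change 0.39, SE 0.12, edgeR adjusted p = 0.0445), and it was not called with the offsets (0.27, 0.0906). Elovl5, which elongates polyunsaturated chains, was at 128 ± 5.83 CPM in control and 127 ± 9.61 in knockout, and Fads1, the desaturase that completes arachidonate, at 254 ± 21.2 and 222 ± 29.2 (-0.20, adjusted p = 0.317). Fads2, the desaturase that acts before it, had 1, 0 and 2 counts in control and 0, 1 and 2 in knockout and was not tested. Elovl2 and Elovl4, named after their values were seen, had 0 counts in all libraries.

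Mitochondrial fatty acid synthesis, a separate pathway that feeds lipoate, had 3 higher and 0 lower of 10 (median 0.33): Acsf3, a malonyl-CoA synthetase, at 0.52 (SE 0.13, edgeR adjusted p = 0.0189), Mcat, the malonyl transferase, at 0.46 (SE 0.13) and Mecr, the enoyl reductase, at 0.50 (SE 0.15). Mcat was not called with the offsets (0.38, adjusted p = 0.0529). Activation and esterification had 3 higher and 3 lower of 23 (median 0.06). Among the acyltransferases that make phosphatidic acid, Agpat4 rose from 43.3 ± 2.39 to 78.9 ± 9.92 CPM (0.87, SE 0.14, adjusted p = 0.00398), Agpat1 rose by 0.53 and Agpat5 by 0.67, and Agpat2 fell from 20.3 ± 6.44 to 10.9 ± 1.31 (-0.88, SE 0.23).

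Oxidation of fatty acids had 3 higher and 1 lower of 19 (median 0.24). Cpt1a, the carnitine transferase that malonyl-CoA inhibits, fell from 44.8 ± 11.6 to 22.5 ± 4.66 CPM (a log2 difference of -0.99, SE 0.21, edgeR adjusted p = 0.0117), and the matrix enzymes Eci1 (0.60), Acadm (0.47) and Etfdh (0.46) rose. Cholesterol synthesis and uptake, mostly SREBP2 targets, had 6 higher and 1 lower of 21 (median 0.23). The synthesis genes Fdft1 (0.63), Ebp (0.64) and Acat2 (0.70) rose. LXR targets had 1 higher and 4 lower of 9 (median -0.58). Nr1h3, LXR alpha itself, is in this list as well as among the regulators. The list median is its value, and it was not called. Abca1, a cholesterol exporter, fell from 15.6 ± 2.88 to 5.57 ± 1.10 CPM (-1.48, SE 0.22, adjusted p = 0.00299), Abca7 fell by 0.86 and Lpl, lipoprotein lipase, by 0.73, and Abcg1 rose by 0.54. Lpl was not called with the offsets (-0.36, adjusted p = 0.16), and Abca7 was called with them (-0.47, adjusted p = 0.045) but not with the replicate block besides (-0.47, adjusted p = 0.0656).

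**Figure D4:**
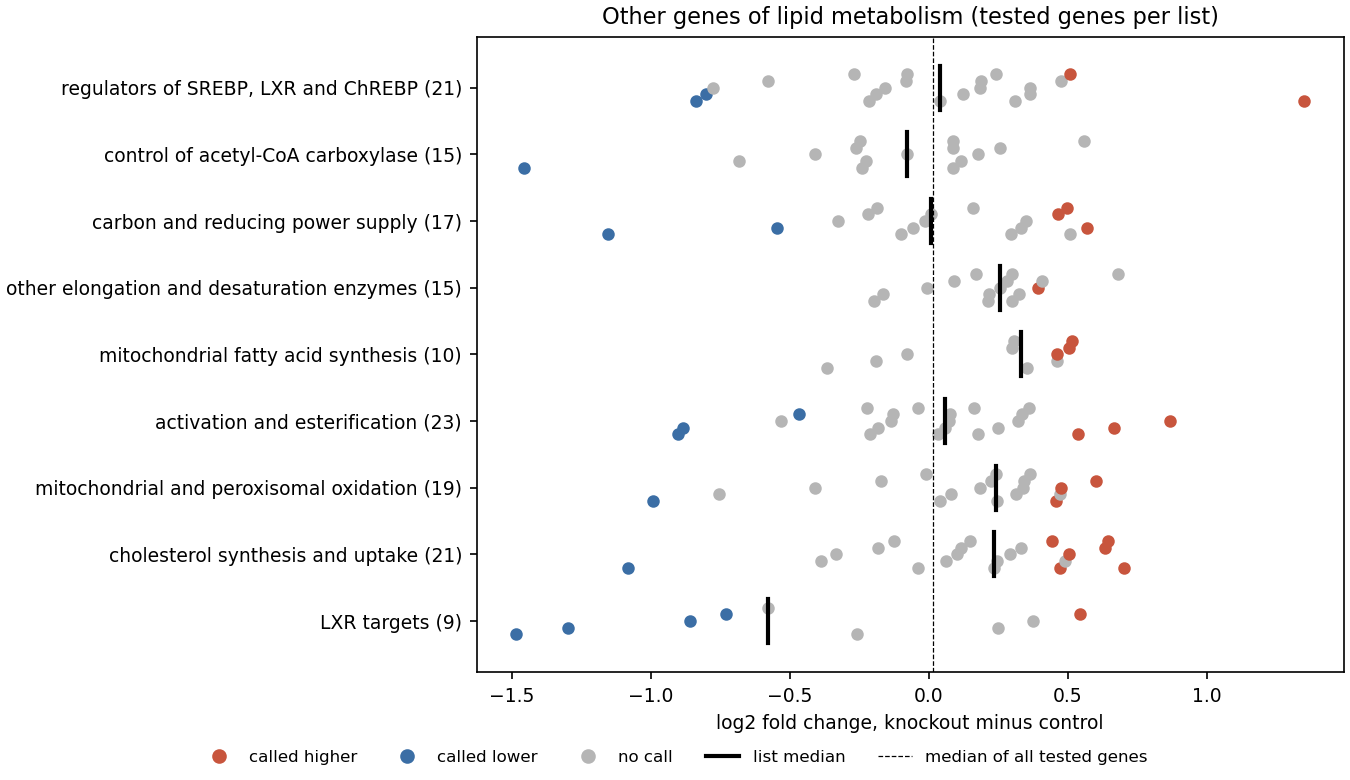
Log2 fold change of knockout minus control for the tested genes of 9 lists of lipid metabolism, coloured by call (red higher, blue lower, grey no call), with list medians (black bars) and the median of all tested genes (dashed line). Medians run from -0.58 for LXR targets (the value of Nr1h3) to 0.33 for mitochondrial fatty acid synthesis.

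Most calls in these lists depended on single libraries. Scaled by total counts alone, the rises of Rxrb, Mdh1, Tecr, Acsf3, Mcat, Mecr, Agpat1, Agpat5, Acadm, Etfdh, Fdft1 and Abcg1 were not called. Mlxip was not called with the offsets and the replicate block together (-0.38, edgeR adjusted p = 0.0585). Without control library 2, 166 genes were higher and 472 lower over the whole table, and mitochondrial fatty acid synthesis, carbon supply and the elongation list had 0 calls each. Among the genes named from the lists, Rxra, Agpat4 and Abca1 were called under all 16 alternatives. Every other called gene named from them lost its call when a certain library was left out: control library 2 for all of them but Agpat2 and Cpt1a, which lost it without knockout library 2.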

How the data were processed

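RNA-seq of 3 control and 3 knockout libraries was analysed. TRIzol was used to take RNA and KAPA Hyper Prep kits to make libraries, per the labels' protocols. Trimmomatic 0.39, STAR 2.7.5c, StringTie 2.1.7 and mm10 appear in the submitters' processing notes, without roles. The authors deposited unscaled read counts per gene. The counting step, annotation release and strand setting were not given in the sources used here, so reads of overlapping, antisense or similar genes (Scd1 and Scd2) may be mixed.

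Columns were matched to samples by name. After filterByExpr (11453 of 31205 genes left) and TMM scaling, knockout was tested against control, two-sided, by the quasi-likelihood F test of edgeR 4.0.16 in R 4.3.3, with Benjamini-Hochberg adjustment over all tested genes and a threshold of 0.05. CPM are TMM-normalized means ± SD (n = 3). Positions, merged exon lengths and GC content came from GENCODE on the same build; 30260 symbols matched directly, 315 through another symbol and 630 not.

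The genes, the 9 lists and the rules were chosen with earlier results of these data known. The rule named all 10 genes, up to 4 called genes per list (groups that do not overlap, lowest adjusted p), 10 genes whatever their result, and the 5 nearest to Mid1ip1 (log2 CPM, prior count 2); a gene that it selects is not reported here. Alternatives were 3 other scalings, 2 other filters, DESeq2 1.42.0, voom (limma 3.58.1), a block for the replicate number, length and GC offsets (loess, span 0.3) alone or with that block, and each library left out. On simulated counts (11484 genes tested), this comparison called 90% of 100 genes changed by 1 on the log2 scale and 100% of 100 changed by 2, and 5% of its 200 calls were unchanged genes. Those simulated counts had a single dispersion for all genes, few changed genes, no length trend and no deviating library. The simulated shares therefore need not hold for the real libraries. All pairs of the real libraries differed by more than sampling noise.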

Additional observations from a re-analysis of the deposited data

How the results depend on the processing

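Mid1ip1 and Elovl7 kept their direction and their call under all 16 alternatives. For the 10 genes, fold changes kept direction and side of the threshold in 89 of the comparisons under other settings. Of the rest, 9 reversed direction and 2 lost the call without reversing. With a library left out 51 kept both, 1 reversed, 6 lost the call and 2 gained it. Scaled by total counts alone, Scd1 was at -0.10, 667 genes were higher over the whole table in place of 1353, and elongation and mitochondrial synthesis had 0 calls each in place of 1 and 3. Upper quartile scaling left 0 calls in elongation, and DESeq2 gave 2. Without a filter the carboxylase control list had 2 calls in place of 1.

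With length and GC offsets 2115 genes were higher and 956 lower, in place of 1353 and 1543, and 2 of the 10 genes were lower in place of 4. Acaca was at 0.039, Srebf1 at 0.12, Scd2 at 0.0071 and Elovl6 at 0.017, all reversed in sign; relative to the median of all genes, which these offsets moved to 0.13, they stayed below 0, at -0.094, -0.015, -0.126 and -0.116. Elongation had 2 calls, mitochondrial synthesis 5 and oxidation 9 in place of 4. With the offsets and the replicate block together, 2074 were higher and 981 lower, 2 of the 10 were lower, Acaca was at 0.034, Srebf1 at 0.12, Scd2 at 0.0045 and Elovl6 at 0.020, and carboxylase control had 0 calls, elongation 2, oxidation 9 and LXR targets 3 in place of 5. The cause of these differences was not tested.

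The replicate numbers paired the libraries only in part: deviations of same-numbered libraries correlated at 0.154, -0.0644 and 0.358. Control libraries 1 and 3 correlated best with the knockout library of the same number. Control library 2 correlated best with knockout library 1 (0.141). The replicate block alone gave 1480 higher and 1732 lower, and carboxylase control 2 calls; it changed no call among the 10 genes.

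With each library left out in turn, all genes called higher ranged from 166 to 2346 and lower from 472 to 2616, and the 10 genes had 0 to 1 higher and 2 to 5 lower. Scd1 ranged from -0.14 to 0.14. Calls ranged from 1 to 9 for the regulators, 0 to 3 for carboxylase control, 0 to 9 for carbon supply, 0 to 5 for elongation, 0 to 5 for mitochondrial synthesis, 1 to 7 for esterification, 0 to 9 for oxidation, 1 to 10 for cholesterol and 1 to 7 for LXR targets. The lowest counts over all genes came without control library 2 and the highest without knockout library 1. Depth limits Mid1ip1 in knockout, where every library is under 3 counts.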
